A study of Mus musculus with 17 samples.

Results

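The cells described are those that the deposited cluster identities call zothers, the entry given to every annotated cell that received none of the 46 cluster names. They were taken by that entry alone, and they number 2348, beside 12089 named cells (16.3% of all annotated cells). They hold 10329089 of 47340924 unique molecular identifiers (UMIs, each standing for 1 captured transcript), or 21.8%. The cells came from Drop-seq, in which single cells are captured in droplets with barcoded beads, applied to the dissociated hypothalamus of B6D2F1 mice (a cross of a C57BL6 female and a DBA2 male). The 5 normal mice (replicates 1 and 2 in batch 0, replicate 3 in batch 1, replicate 4 in batch 2, replicate 5 in batch 3) were fed normally, and the 3 food-deprived mice (replicate 1 in batch 1, replicate 2 in batch 2, replicate 3 in batch 4) had no food for 24 h. No allele or agent is labelled for either group, and the labels do not give the hypothalamic nucleus a cell came from. The named classes used for comparison are GABA and Glu (the named neurons, with 17 Hista cells), MO (rich in myelin genes) and Epith (rich in vessel genes).

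The hypothalamus holds many small populations of neurons that release GABA or glutamate together with a neuropeptide, among glia, ependymal cells lining the ventricle, and the cells of blood vessels and meninges. Neuropeptides such as those encoded by Agrp, Pomc, Pmch, Gnrh1 and Trh govern feeding, reproduction and pituitary output, and each is made by few cells. The pituitary hangs below the hypothalamus on a stalk. Cell classes are recognised by marker genes, for example Snap25 and Stmn2 in neurons, Mbp and Mog in myelinating oligodendrocytes, Cldn5 and Flt1 in endothelial cells, Rgs5 and Vtn in mural cells and Dcn and Lum in fibroblasts.

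Every annotated cell could be assigned to a mouse. In the library tables, 120 of 18167 distinct barcodes occur in more than 1 library, and 161 annotated cells (39 of them zothers) share a barcode with another library of the same mouse and were placed by identical counts. Within libraries, 229 pairs of annotated cells have barcodes that differ by 1 deleted base, and 163 of the 178 pairs with 2 named cells (91.6%) have the same class. Of the 51 such pairs with a zothers cell, 36 are both zothers, and in the other 15 the partner is a named neuron 10 times. The 17 libraries fall into 8 with Gapdh at 146 to 807 CPM (UMIs of a gene scaled to a common total per library or group of cells) and 9 with Gapdh at 4.2 to 8.2 CPM. The zothers share spans 5.7 to 27.8% in the first kind and 8.2 to 17.8% in the second, so the ranges overlap. With 1 cell of each such barcode pair left out, a neuronal class was nearest to 87.7% of zothers (87.8% with all cells), and 7.89% carried 2 or more marker sets (7.78%), as means over mice by the measures explained below.

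The zothers cells were found in every mouse, and their share differed among mice. Of the annotated cells they made up 8.5%, 5.7%, 16.2%, 11.8% and 27.3% in normal replicates 1 to 5 (11, 9, 416, 208 and 513 cells). In food-deprived replicates 1 to 3 they made up 15.9%, 10.3% and 23.3% (584, 307 and 300 cells). The highest shares belong to normal replicate 5 and food-deprived replicate 3, the mice of batches 3 and 4, and the lowest to the batch 0 mice. Named neurons were also a larger share in those 2 mice (23.7% and 26.4%) than in the mice of batches 1 and 2 (11.4 to 13.9%). The batch 0 mice broke this parallel. Named neurons made up 14.7% of normal replicate 1 and 25.9% of normal replicate 2, the mouse with the lowest zothers share. Values per mouse below use the 6 mice with at least 20 zothers cells, normal replicates 3 to 5 and food-deprived replicates 1 to 3.

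**Figure D1:**
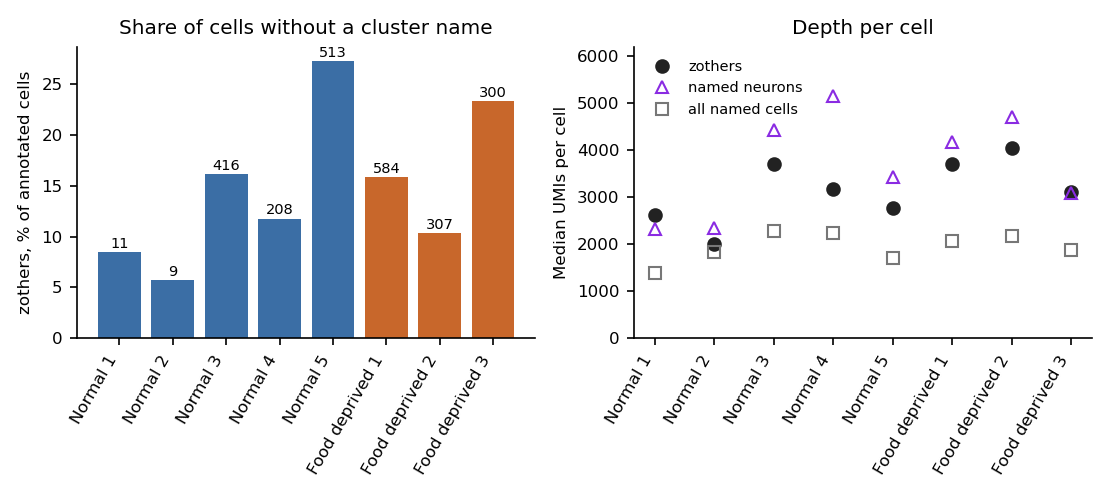
Left: zothers as a percentage of annotated cells in each mouse, with the number of zothers cells above each bar (blue normal, orange food deprived). Right: median UMIs per cell of zothers, named neurons and all named cells in each mouse. The share runs from 5.7 to 27.3%, and the zothers median lies above that of all named cells in each mouse.

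Pooled over mice, the median depth of zothers lay above that of all named cells and below that of named neurons. Their median depth was 3209.5 UMIs and 1830.5 genes, against 2093 UMIs and 1187 genes over all named cells and 3917 UMIs and 2095 genes over named neurons. The median over zothers exceeded that over named cells in 8 of 8 mice, by 1.08 times in normal replicate 2 to 1.88 times in normal replicate 1. Against named neurons, the zothers median was higher in normal replicate 1 (2619 against 2337 UMIs) and food-deprived replicate 3 (3121 against 3090 UMIs). In the other mice it was lower. The range of zothers ran from 799 to 36822 UMIs. Zothers took 14.1% of the cells under 1000 UMIs, 11.2% of those with 1000 to 2000, 13.3% of those with 2000 to 4000, 28.1% of those with 4000 to 8000 and 32.7% of those with 8000 or more. The share was thus lowest at 1000 to 2000 UMIs and highest at 8000 or more. The corresponding shares of named neurons were 10.2%, 8.63%, 12.6%, 30.2% and 46.0%. Among zothers and named neurons together, the zothers were 58.1% of the cells under 1000 UMIs and 41.6% at 8000 or more. To compare marker content at equal depth, each cell was thinned at random to 1000 UMIs, which 2143 of the 2348 zothers reached. At that depth the median zothers cell had 768 genes detected, against 763 in named neurons and 689 in all named cells.

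Most zothers cells carried neuronal transcripts at the level of the named neurons. A cell was taken to carry a marker set when its UMIs of the set passed the 99th percentile of the named cells outside the class that owns the set, with at least 3 UMIs required. For the neuron set (Snap25, Syt1, Stmn2, Tubb3, Rbfox3, Elavl4, Syp, Eno2, Snhg11 and Celf4) this meant 9 of 1000 UMIs. The set was carried by 1699 of 2143 zothers (79.3%; mean over mice 79.2 ± 6.5%, SD, n = 6), 88.9% of GABA cells, 90.0% of Glu cells and 0.911% of the other named cells. In normal replicates 3 to 5 the share was 68.8%, 83.2% and 88.3%, and in food-deprived replicates 1 to 3 it was 77.6%, 78.4% and 78.9%. Normal replicate 3 is the lowest and normal replicate 5 the highest, and the food-deprived mice lie between them. Zothers supplied 45.7% of all 3715 cells that carried the neuron set. These differences between zothers and named classes are descriptions, since the classes were formed from the same counts.

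Summed over cells, the 10 neuron genes took 14395 ± 947 CPM of zothers (SD, n = 6 mice), 13966 ± 1396 CPM of GABA cells (n = 7) and 15000 ± 1003 CPM of Glu cells (n = 6), so the zothers mean differed from both by less than its own SD. Snap25, a protein of synaptic vesicle fusion, stood at 1030 ± 140 CPM in zothers, between 852 ± 187 CPM in GABA and 1416 CPM in Glu cells. The synaptic vesicle calcium sensor Syt1 was at 1078 ± 139 CPM, above the 603 ± 201 CPM of GABA and the 891 CPM of Glu cells. At equal depth the median zothers cell held 14 UMIs of the set, the median GABA cell 14, the median Glu cell 15 and the median other named cell 0. The difference lay in the low tail, where the 5th percentile was 1 UMI in zothers and 7 in GABA and Glu cells.

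**Figure D2:**
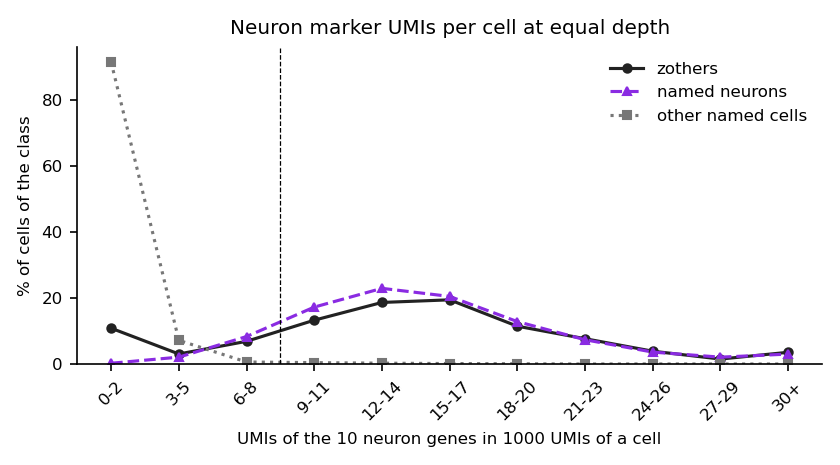
Percentage of cells (y axis) by the number of UMIs of the 10 neuron genes found in 1000 UMIs of a cell (x axis), for zothers, named neurons and other named cells. The dashed line marks the step to 9 UMIs, from which a cell counts as carrying the set. Zothers follow the named neurons, with a median of 14 UMIs, apart from a second group at 0 to 2 UMIs.

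The most abundant transcripts of zothers had levels close to those of named neurons. UMIs count transcript ends, so they do not scale with transcript length. Meg3, a long noncoding RNA abundant in neurons, led with 9694 ± 1654 CPM (SD, n = 6), against 8683 CPM in GABA and 410 CPM in MO cells. Snhg11 followed with 7547 ± 970 CPM, then Nap1l5, a neuronal nucleosome assembly protein, with 5530 ± 958 CPM. Malat1 (4545 CPM), Ahi1 (4074 CPM), Hsp90ab1 (3844 CPM), Ttc3 (3570 CPM), Gnas (3472 CPM) and Ubb (2968 CPM) were also among the 10 highest. Malat1, a nuclear RNA, was at 4936 CPM in GABA, 4218 CPM in Glu and 12035 CPM in MO cells. Of the function lists, oxidative phosphorylation stood at 12891 ± 1304 CPM in zothers, 12153 ± 1162 CPM in GABA and 12595 ± 1219 CPM in Glu cells. Heat shock genes stood at 9444 ± 1487 CPM, against 10533 ± 1978 CPM in GABA and 10305 ± 1960 CPM in Glu cells. The unfolded protein response list was at 5908 ± 625 CPM against 6582 ± 693 and 6269 ± 854 CPM, and cholesterol synthesis at 954 ± 101 CPM against 890 ± 296 and 930 ± 113 CPM. Immediate early genes, which mark recent cell activation, were at 5561 ± 746 CPM in zothers, between 6747 ± 1504 CPM in GABA and 3466 ± 1312 CPM in Glu cells. Glucocorticoid-induced genes were at 1643 ± 541 CPM, above GABA (1046 ± 202 CPM) and Glu (835 ± 142 CPM) and below Epith (13130 ± 1658 CPM).

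GABAergic transcripts were found in more of the zothers neurons than glutamatergic ones, though the 2 kinds were not detected equally well. Gad2, an enzyme of GABA synthesis, was at 1032 ± 131 CPM in all zothers (SD, n = 6), 947 ± 197 CPM in GABA and 103 CPM in Glu cells. Gad1, the second GABA synthesis enzyme, was at 309 ± 79.2 CPM, below the 508 ± 107 CPM of GABA cells. The vesicular GABA transporter Slc32a1 was at 319 ± 63.3 CPM against 369 ± 142 CPM in GABA cells. The vesicular glutamate transporter Slc17a6 was at 206 ± 40.5 CPM, above the 15.7 CPM of GABA cells and below the 688 CPM of Glu cells. Of the 1699 zothers cells with the neuron set, 58.3% had at least 1 UMI of Gad1, Gad2 or Slc32a1 in 1000 UMIs and none of the Slc17a6, Slc17a7 or Slc17a8 transporters. A further 13.8% had glutamatergic UMIs alone, 3.24% had both and 24.7% neither. Neither kind was seen in 20.2% of GABA and 43.9% of Glu cells with the neuron set, so the absence of both at this depth is common to named neurons too. GABAergic UMIs were detected in 79.0% of these GABA cells, but glutamatergic UMIs in only 51.7% of these Glu cells. If these rates also held in zothers, their glutamatergic share would be undercounted more than the GABAergic share, which was not tested. In MO cells, which should lack these genes, 4.87% had a GABAergic and 1.10% a glutamatergic UMI at the same 1000 UMIs. Without thinning, at a median of 3862 UMIs in zothers and 2295 UMIs in MO cells, these shares were 73.1% and 31.6% in zothers and 9.81% and 2.41% in MO.

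Peptide transcripts were sparser in zothers than in the named neurons. The 22 listed neuropeptide genes took 5056 ± 3973 CPM of zothers, 11594 ± 4055 CPM of GABA and 16361 ± 4176 CPM of Glu cells. A cell was called high for a gene when it held at least 5 UMIs of it and these made up at least 0.5% of the cell's UMIs, a rule chosen after the values were seen. The genes that describe each group of high cells below, where they are in no fixed list, were also chosen after their values were seen, and the groups get no test. By this rule 173 of the 1699 zothers with the neuron set (10.2%; range over 6 mice 6.5 to 13.6%) were high for at least 1 peptide. The same held for 42.7% of GABA cells (32.8 to 48.9%) and 24.0% of Glu cells (14.9 to 30.8%), whose median depths (4054.5 and 4670 UMIs) were close to the 3862 UMIs of the zothers. The zothers range lies below both other ranges.

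The peptides of the best known feeding and water balance neurons were rarely high in zothers. Agrp, which encodes the hunger peptide of the arcuate nucleus, was high in 1 zothers cell and 49 named neurons, 48 of them in cluster GABA15. At least 1 Agrp UMI was found in 1.32% of zothers (median 3209.5 UMIs), 5.87% of named neurons (3917 UMIs) and 0.395% of MO cells (2187 UMIs), which should lack it. Npy, its partner in the same neurons, was high in 4 zothers and 108 named neurons. Pomc, the precursor of the satiety peptide alpha-MSH, was high in 1 zothers cell and 22 named neurons. Avp, the antidiuretic hormone vasopressin, was high in 1 zothers cell and 226 named neurons. Vip was high in 3 against 50, Ghrh in 0 against 8, Hcrt (orexin) in 0 against 7 and Kiss1 in 0 against 15.

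Other peptides were better represented. Cartpt was high in 56 zothers and 119 named neurons, Gal in 55 and 105, and Sst in 43 and 101. Tac2 was high in 18 and 37, Tac1 in 16 and 25, Nts in 16 and 17, and Penk in 11 and 60. Cells high for Cartpt or Gal were found in zothers of all 6 mice, with 24 of the Cartpt cells in normal replicate 5. Trh, the precursor of thyrotropin-releasing hormone, was one of the few whose high cells lay mostly in zothers, with 18 zothers and 9 named neurons. The Trh cells were spread over all 6 mice, with 3, 2 and 2 in normal replicates 3 to 5 and 5, 3 and 3 in food-deprived replicates 1 to 3. Trh stood at 169 ± 82.1 CPM in zothers, above the 118 CPM of Glu, the highest named class, by less than the SD over mice.

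**Figure D3:**
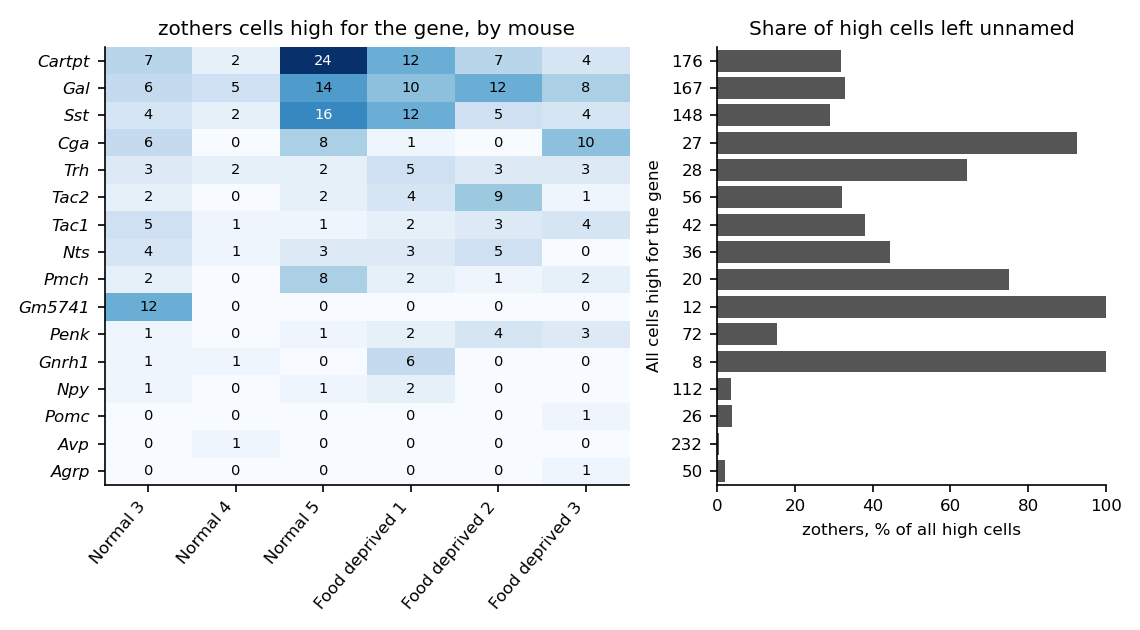
Left: number of zothers cells high for each gene (at least 5 UMIs and 0.5% of the cell's UMIs) in each of 6 mice. Right: zothers as a percentage of all annotated cells high for the gene, whose number stands at the left of each bar. Gnrh1 and Gm5741 have all their high cells in zothers, and Agrp, Npy, Pomc and Avp have under 5% there.

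Genes higher in zothers than in any named class were few and marked small groups of cells. Among genes at 20 CPM or more in zothers, 5 exceeded the highest named class by more than 2 times (means over mice, with 5 CPM added to both). They were Pmch, Gnrh1, Cga, Gm5741 and Prg4. The next 15 genes by that ratio were Sag, Neurod1, Gpr101, 3110047P20Rik, Cplx1, Crhbp, Scube1, Pnoc, Trpc4, Necab3, Amn, Fam84a, Trh, Cygb and Hexim2, with log2 ratios of 0.92 for Sag to 0.46 for Hexim2. Sag and Neurod1 rest mainly on normal replicate 3, at 125 and 79.9 CPM. The other mice had at most 1.87 CPM of Sag and 24.3 CPM of Neurod1.

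Pmch encodes melanin-concentrating hormone, a peptide of the lateral hypothalamus that promotes feeding. It was at 821, 16.4 and 8762 CPM in zothers of normal replicates 3 to 5 and 1651, 47.8 and 1417 CPM under food deprivation (replicates 1 to 3), so 1 mouse stood far above the rest and the groups overlapped. The mean was 2119 ± 3324 CPM (SD, n = 6), against 78.3 CPM in GABA, the highest named class. High Pmch was found in 15 zothers, 2 named neurons and 3 other named cells, and 8 of the 15 came from normal replicate 5. These 15 cells held 22905 of their UMIs as Pmch, 28 to 4405 per cell with a median of 611. They also carried Cartpt, with UMIs in 13 of 15 cells (22983 CPM against 516 CPM in other zothers), the prohormone convertase Pcsk2 (13 cells), Nucb2 (12 cells), Nptx1 (9 cells) and the neurokinin receptor Tacr3 (5 cells). Gad1 had UMIs in 9 of the cells, Gad2 in 2, Slc32a1 in 1 and Slc17a6 in 6. The orexin gene Hcrt had none. Of the 13 that reached 1000 UMIs, 7 carried the neuron set and all 13 were nearest to a neuronal class. A Pmch UMI was found in 10.1% of zothers, 9.68% of named neurons and 7.48% of MO cells, so a single UMI of this gene is at background and only the high cells are read.

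Gnrh1 encodes gonadotropin-releasing hormone, which controls reproduction through the pituitary. Zothers held it at 183, 32.8 and 2.35 CPM in normal replicates 3 to 5 and 2029, 5.17 and 0 CPM under food deprivation (replicates 1 to 3), which puts 1 mouse above the rest. High cells numbered 8 in zothers, 6 of them in food-deprived replicate 1 and 1 each in normal replicates 3 and 4. None of the 12089 named cells was high, which allows a share of up to 0.0248% by counting error alone. That limit treats cells as independent and does not cover the spread between mice. The 8 cells were deep, with a median of 17633 UMIs, and each held 16 to 1590 Gnrh1 UMIs. The neuron set was carried by 7 of the 8, 6 had UMIs of the kisspeptin receptor Kiss1r, 6 of Gng8 and 5 of the transcription factor Six6. Slc17a6 had UMIs in 6 of 8 cells, Gad1 in 7 and Gad2 in 7.

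Cga encodes the alpha subunit shared by thyrotropin and the gonadotropins of the pituitary. It stood at 866, 0 and 376 CPM in zothers of normal replicates 3 to 5 and 27.4, 0 and 858 CPM under food deprivation (replicates 1 to 3). The groups overlapped and 1 mouse of each group had none. High Cga was found in 25 zothers, 1 named neuron and 1 other named cell, with 6 and 8 of the zothers in normal replicates 3 and 5 and 1 and 10 in food-deprived replicates 1 and 3. The granule protein Chga had UMIs in 25 of 25 cells (40202 CPM against 417 CPM in other zothers), Tshb, the beta subunit of thyrotropin, in 15, Timeless in 20, Cck in 20, Epcam in 21, Gata2 in 18 and the pituitary transcription factor Pitx1 in 16. Gh, Prl and Lhb, which mark other hormone cells of the anterior pituitary, had no UMI in any of the 25, and neither had the pituitary transcription factor Pou1f1. The neuron list was low in these cells, at 2158 CPM against 14386 CPM in other zothers. Of the 23 that reached 1000 UMIs, 1 carried the neuron set, while GABA or Glu was the nearest named class of 21. The pituitary set, for which 3 UMIs in 1000 summed over its 9 genes are enough, was carried by 23 of 2143 zothers (1.07%). That is 92.0% of all carriers, and 2 named cells carried it too. Cga made up most of the list in zothers (355 of 375 CPM on average), so this count largely repeats that of the Cga-high cells.

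Gm5741 marked a group of neurons found in 1 mouse. It was at 441 CPM in zothers of normal replicate 3, 2.18 CPM in normal replicate 4 and 0 CPM in the other 4 mice. All 12 high cells were zothers of normal replicate 3, and none of the 12089 named cells was high. The 12 cells had UMIs of the nicotinic receptor subunits Chrna3 (11 cells) and Chrnb4 (9 cells), of the transcription factors Pou4f1 (10 cells) and Nr4a2 (11 cells), of Gpr151 (8 cells) and of Tac2 (11 cells). Chrnb4, Pou4f1 and Gpr151 are known as genes of the habenula. Slc17a6 had UMIs in 10 of them and Gad2 in 1, and 11 of the 12 carried the neuron set. Several of the genes ranked above, 3110047P20Rik (1971 CPM in these cells against 24.3 CPM in other zothers), Necab3 (2214 against 35.9 CPM) and Scube1 (1363 against 15.3 CPM), were far higher in the same 12 cells. The 32 cells of the named cluster SCO also all came from normal replicate 3. Prg4, the fifth gene, came from 2 cells of food-deprived replicate 3.

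Cells of vessels and fibroblasts were the second most frequent kind by marker sets. An endothelial, mural or fibroblast set without the neuron set was found in 198 of 2348 zothers (8.43%; 8.73 ± 4.39% over 6 mice), with 68, 18 and 14 cells in normal replicates 3 to 5 and 48, 28 and 22 in food-deprived replicates 1 to 3. Normal replicate 3 held the most. The 205 zothers under 1000 UMIs were not scored for sets. Their summed UMIs held 8850 CPM of mural, 4449 CPM of fibroblast and 3081 CPM of endothelial genes, against 22.5, 12.6 and 55.1 CPM in the zothers with the neuron set alone, so the count of 198 leaves out vessel transcripts in shallow cells. The sets chose these cells, so their levels are descriptions. The cells were shallow, with a median of 1489.5 UMIs and 909.5 genes against 3862 UMIs in the zothers with the neuron set alone. They include 51 with the fibroblast set alone, 35 with the mural set alone, 31 with the endothelial set alone and 40 with mural and fibroblast sets together. The 20 cells with all 3 sets, 12 with endothelial and mural sets and 9 with endothelial and fibroblast sets make up the rest.

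Of the named vessel clusters, Epith1 held 26404 CPM of endothelial, 5234 CPM of mural and 652 CPM of fibroblast genes, and Epith2 held 16856, 14990 and 6178 CPM. The 198 zothers held 11639, 12217 and 14071 CPM. The fibroblast-only cells held Dcn, a collagen-binding proteoglycan, at 25391 CPM and its relative Lum at 2736 CPM, against 1770 and 68.4 CPM in Epith2. The mural-only cells held Vtn at 13738 CPM, the pericyte gene Rgs5 at 7199 CPM and the potassium channel gene Kcnj8 at 2655 CPM, against 2376, 4189 and 149 CPM in Epith2. Acta2, the actin of smooth muscle, ran the other way, at 499 CPM in the mural-only zothers and 2828 CPM in Epith2. The endothelial-only cells held Ly6c1 at 11148 CPM and Cldn5, a tight junction protein of the blood-brain barrier, at 1480 CPM, against 6679 and 1543 CPM in Epith1. Zothers made up 35.3% of all cells that carried the fibroblast set and 16.1% of those with the mural set, and 7.27% of those with the endothelial set.

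Glial and other sets were rare in zothers. The myelinating oligodendrocyte set was carried by 26 of 2143 cells (1.21%; MO 99.1%), the precursor set by 11 (0.513%), the newly formed oligodendrocyte set by 12 (0.56%), the astrocyte set by 4 (0.187%), the tanycyte set by 11 (0.513%) and the microglia set by 9 (0.42%). The ependymal set, led by the cilia genes Ccdc153, Tmem212 and Foxj1, was carried by 19 cells (0.887%), of which 13 came from normal replicate 3. In named cells of other classes the share was 1.01% for the myelin, 0.864% for the precursor and 0.836% for the newly formed oligodendrocyte set. It was 0.676% for the astrocyte, 0.931% for the tanycyte, 0.218% for the microglia and 0.486% for the ependymal set. The zothers shares of the precursor, newly formed, astrocyte and tanycyte sets were below those values and are read as background. The 99th percentile rule itself holds these named shares near 1% or less, so they are not an independent background. The blood set was carried by 10 cells (0.467%, below the 0.508% of named cells), dominated by the haemoglobin gene Beta-s at 403157 CPM. Proliferation genes were carried by 3 cells (0.14%, against 0.0464% of named cells of other classes) and macrophage genes by 5 (0.233% against 0.0198%). The choroid plexus and extrahypothalamic neuron sets were carried by 6 each (0.28%, against 0.153% and 0.277%).

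**Figure D4:**
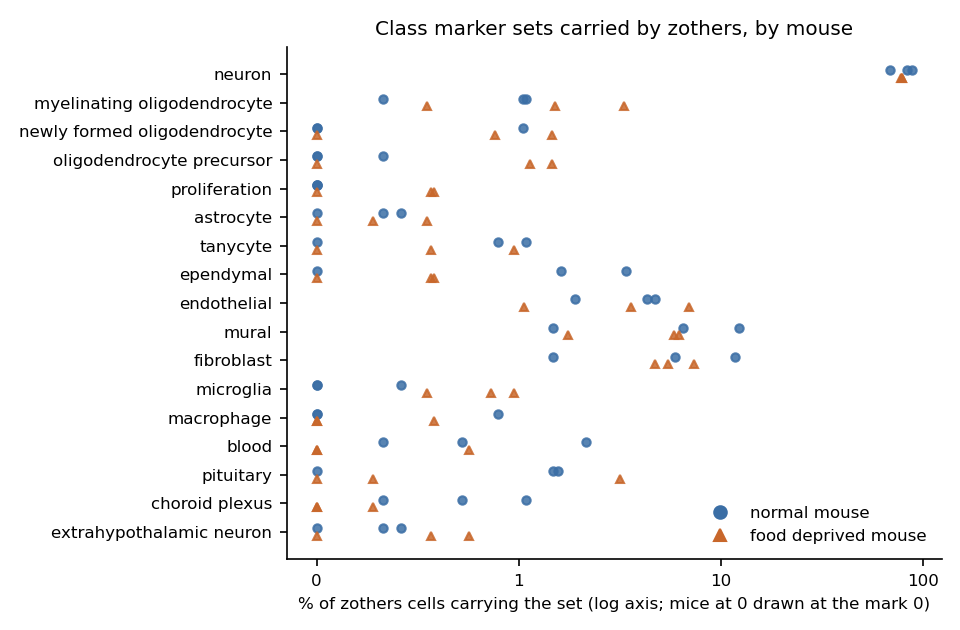
Percentage of zothers cells at 1000 UMIs that carried each of 17 class marker sets (log axis, mice at 0 drawn at the mark 0), in 3 normal (circles) and 3 food-deprived mice (triangles). The neuron set lies at 68.8 to 88.3%, the vessel and fibroblast sets at 1.06 to 12.3% and the other sets under 4%.

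Counted once each, the 2348 zothers divide into 1652 with the neuron set alone (70.4%), 47 with the neuron and another set (2.0%), 198 with vessel or fibroblast sets, 21 with the pituitary set, 26 with an oligodendrocyte lineage set, 18 with another set, 181 with none (7.71%) and 205 under 1000 UMIs (8.73%). The 181 cells without any set were close to the neuron threshold, with a median of 7 neuron UMIs in 1000 and 10077 CPM of neuron genes, and their nearest named class was neuronal in 92.8%. Their median depth was 3581 UMIs. Zothers with no set (8.45%) were about as frequent as GABA (10%) and Glu cells (9.25%) with none. More than 1 set was carried by 7.61% of zothers, 6.29% of GABA and 4.45% of Glu cells. Over all named cells the share was 17.5%, with 56.0% in Epith and 2.1% in MO cells. The zothers with 2 or more sets had a median of 2032 UMIs, below the 3692 UMIs of zothers with 1 set. Of pairs of sets, mural with fibroblast (62 cells), endothelial with mural (34) and endothelial with fibroblast (29) led, and neuron with mural (12) was the most frequent across lineages.

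Each cell at 1000 UMIs was also set against the mean profile of every named class, built from the other mice. The nearest class of 1183 zothers was GABA (55.2%), of 704 Glu (32.9%), of 169 Epith (7.89%), of 29 MO, of 27 Macro and of 13 POPC, and 18 cells fell to 5 further classes. A neuronal class was nearest in 88.1% of cells (87.8 ± 6.9% over 6 mice). The measure always picks 1 of the named classes, also for a cell that belongs to none. Of the zothers with the pituitary set and no neuron or vessel set, 90.5% were nearest to a neuronal class, at only 1996 CPM of neuron genes. Nearness alone, here and for the cells without any set, thus does not show that a cell is a neuron. The lead of the nearest class over the next, in natural log likelihood, had a median of 24.4 in zothers, 51.2 in GABA and 45 in Glu cells, and it was under 10 in 23.1%, 8.64% and 12% of them. The split between the 2 transmitter classes differed among mice. GABA was nearest in 41.1%, 51.4% and 70.1% of zothers in normal replicates 3 to 5 and in 42.7%, 50.2% and 78.5% in food-deprived replicates 1 to 3. The highest values belong to the mice of batches 3 and 4, and the 2 groups overlap. In food-deprived replicate 1, Glu was nearest to more of the zothers (44.4%) than GABA was (42.7%).

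Food-deprived and normal mice were compared to ask whether 24 h without food changed the number or content of zothers. The share of annotated cells was 13.9 ± 8.4% in normal (SD, n = 5) and 16.5 ± 6.5% in food-deprived mice (n = 3), a difference of 2.63 percentage points that did not pass the two-sided exact permutation test (p = 0.661, smallest possible p 0.0179). Within batches the food-deprived mouse had the lower share, 15.9% against 16.2% in batch 1 and 10.3% against 11.8% in batch 2, so the mean within-batch difference was -0.857 points. Without food-deprived replicate 3 the difference was -0.772, and with the mice of at least 200 annotated cells it was -1.89. Median depth was 3224 ± 477 UMIs in normal and 3627 ± 471 UMIs in food-deprived mice (n = 3 each; two-sided exact permutation p = 0.5, where 3 mice against 3 cannot give less than 0.1).

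None of the 17 class marker sets passed the exact permutation test between the groups, with adjusted p at 0.85 or above, and with 3 mice in each group no set could have passed. The neuron set was carried by 80.1 ± 10.1% of zothers in normal and 78.3 ± 0.64% in food-deprived mice (exact permutation p = 0.8). Within batch 1 the share was higher in the food-deprived mouse (77.6% against 68.8%) and within batch 2 lower (78.4% against 83.2%). The fibroblast set was carried by 6.4 ± 5.16% and 5.88 ± 1.37%, and the mural set by 6.76 ± 5.42% and 4.62 ± 2.49%. In both sets normal replicate 3 was highest.

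Across all genes, no gene of zothers was called between food-deprived and normal mice by edgeR's quasi-likelihood test with Benjamini-Hochberg adjustment (0 of 10912 genes tested, 0%), while 303 genes had an unadjusted p under 0.05 (2.78%). DESeq2 called 2 (0.0183%), Ptgds (adjusted p = 2.9e-08) and Oxt (adjusted p = 0.022). Ptgds was the only gene called by edgeR with no filter on low counts (1 of 17671, 0.00566%) and with batches 1 and 2 alone (1 of 11322, 0.00883%). The median log2 fold change over all tested genes was -0.0044. For 8.94% of the genes the 3 normal and 3 food-deprived mice did not overlap. The 10 genes of smallest unadjusted p were Ptgds, Rbm3, Oxt, Kcnd2, Clgn, Rock1, Kcnab1, Calca, Cyp51 and Grp, all with adjusted p = 0.9999 in edgeR and all without overlap of the groups.

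Ptgds, which encodes prostaglandin D2 synthase, an enzyme abundant in oligodendrocytes and meninges, gave 196, 169 and 65.7 CPM in normal replicates 3 to 5. Its levels in food-deprived replicates 1 to 3 were 513, 570 and 676 CPM (log2 2.03, SE 0.35, unadjusted p = 0.00024, edgeR). In named MO cells Ptgds was at 10066, 8329 and 4986 CPM in the same normal mice and at 14149, 16776 and 14898 CPM in the food-deprived mice, again without overlap. In named neurons it was at 58.0, 35.6 and 15.2 CPM against 112, 108 and 50.6 CPM. Among zothers that carried the neuron set the Ptgds difference was smaller, at log2 0.46 (adjusted p = 0.998, edgeR), while the other 9 genes kept values near those of all zothers, such as -2.05 for Oxt and -0.91 for Kcnd2. The part of free RNA from MO cells in these values was not tested. Oxt, the gene of oxytocin, was at 47.3, 36.3 and 52.3 CPM in normal mice, and food-deprived mice had 4.53, 14.1 and 17.5 CPM (log2 -2.07, SE 0.42). In MO cells, which should lack it, Oxt was at 46.7, 29.2 and 110 CPM in normal and 3.83, 29.2 and 29.5 CPM in food-deprived mice. Its zothers level was thus near that of a class that should not make it. In named neurons Oxt was at 60.4, 3092 and 3146 CPM in normal and 318, 361 and 1509 CPM in food-deprived mice. There the groups overlapped, and the food-deprived mouse of batch 1 was the higher of its pair. The source of the Oxt UMIs in zothers was not tested. Only 1 zothers cell was high for Oxt.

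Rbm3, a cold-induced RNA-binding protein gene, was at 16.9, 24.5 and 21 CPM in normal mice, and food-deprived mice had 52.4, 61.1 and 36.0 CPM (log2 1.30, SE 0.26). It was listed with Gapdh among 5 genes meant to mark the kind of library, but its levels did not follow that kind. Normal replicate 3, with low-Gapdh libraries only, had 16.9 CPM of Rbm3 and 6.47 CPM of Gapdh. Normal replicate 5, with high-Gapdh libraries only, had 21 CPM of Rbm3 and 461 CPM of Gapdh. Within low-Gapdh libraries the log2 of Rbm3 with the batch block was 1.37. Named neurons did not overlap in it either (18.9 against 51.7 CPM on average). Kcnd2, a potassium channel of the A-type current, was at 112, 86.5 and 81.6 CPM in normal mice, against 47.2, 57.9 and 48.7 CPM without food (log2 -0.87, SE 0.18). In named neurons the groups overlapped for Kcnd2. Cyp51, an enzyme of cholesterol synthesis, was at 98.5, 92.9 and 115 CPM in normal mice, against 67.6, 66.2 and 70.1 CPM without food (log2 -0.59, SE 0.15). It is the only one of the 17 tested genes of its list without overlap, beside 8.94% of all genes tested. That list had 4 genes higher and 13 lower with a median log2 of -0.079. The remaining log2 values were -1.24 for Clgn, -0.71 for Rock1, 1.12 for Kcnab1, -1.63 for Calca and -1.52 for Grp.

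**Figure D5:**
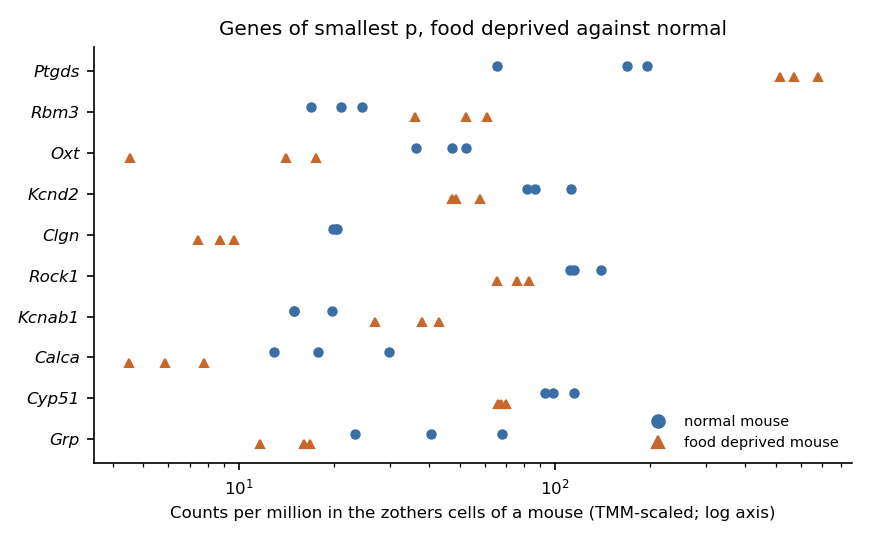
CPM (log axis) of the 10 genes of smallest unadjusted p in the zothers cells of 3 normal (circles) and 3 food-deprived mice (triangles). The groups do not overlap in any of the 10, which were chosen by p, and none was called by edgeR.

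No member of any list was called by edgeR, and list medians are given as descriptions beside the median of -0.0044 over all genes. Of 20 tested peptides 11 were higher and 9 lower in food-deprived mice (median log2 0.057). Oxt, Gal and Grp, 3 of the 20, did not overlap, beside 975 of all 10912 genes tested (8.94%). Gal, the gene of galanin, was at 380, 425 and 421 CPM in normal mice, against 431, 855 and 468 CPM without food (log2 0.52). Of 15 heat shock genes 14 were lower (median -0.20), of 16 immediate early genes 10 (median -0.077), and of 19 oxidative phosphorylation genes 15 were higher (median 0.054). The unfolded protein response (10 of 19 higher, median 0.024) and glucocorticoid-induced lists (8 of 15 higher, median 0.11) were split. Of the marker lists, all 7 myelin genes (median 0.61) and all 8 precursor genes (median 0.56) were higher, while 8 of 9 mural (median -0.54), 9 of 9 endothelial (median -0.22) and 7 of 9 fibroblast genes (median -0.50) were lower. Agrp is not among the tested peptides, having too few counts in zothers.

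With batch as a block, edgeR called 153 of 10912 genes (1.4%), 66 higher and 87 lower. Only batches 1 and 2 hold both groups, so the calls rest on 2 pairs of mice with 1 residual degree of freedom. Cga had the smallest p (log2 -4.95) and Gnrh1 was among the first (log2 2.22), beside the cell counts given above, 6 Cga-high cells in normal replicate 3 against 1 in food-deprived replicate 1 and 1 Gnrh1-high cell against 6. The haemoglobin gene Beta-s (log2 -2.58), Gapdh (log2 2.30) and 35 ribosomal protein genes, all higher, were also called. Gapdh, which marks the kind of library, was at 6.47 CPM in normal replicate 3 and 133 CPM in food-deprived replicate 1. In libraries of the low-Gapdh kind with the same block, edgeR called 81 genes (0.74%), 20 higher and 61 lower, with no ribosomal protein gene. Both fits rest on the same 2 pairs of mice, and the low-Gapdh libraries are among those of the first fit. Ptgds had log2 1.56 and 1.40 in them, and Oxt -2.40 and -2.26. Of the 10 genes named above, 7 were called with batch as a block, and Clgn, Cyp51 and Grp were not. In the low-Gapdh libraries Rock1 (adjusted p = 0.138), Kcnab1 (0.153) and Calca (0.0991) also lost the call in edgeR. With batches 1 and 2 alone and no block, Ptgds was the only one of the 10 called, and the adjusted p was 0.442 for both Rbm3 and Oxt in edgeR. In sums over cells such as these, fewer cells of a kind and less RNA per cell cannot be told apart.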

How the data were processed

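The deposited values used are raw UMI counts per gene and cell, whole numbers that the authors did not normalize, and the authors' cluster name per cell, a categorical value. The submitters' processing notes name mm9; the aligner is not given in the sources used here. No doublet caller was run, and cells carrying 2 or more marker sets are counted in place of one. CPM scale the summed UMIs of a mouse and class to a common total. Mice per group are separate animals. Zothers per mouse held 30142 to 3066105 UMIs, and batch 0 mice, with 11 and 9 zothers cells, were left out of tests that need 20 cells. Counts of zothers were summed per mouse and tested with edgeR 4.0.16 (TMM, filterByExpr, quasi-likelihood, adjusted p threshold 0.05). DESeq2, the block, cell minimums and single mice left out were alternatives. In the gene comparison CPM are TMM-scaled. Shares and depths were compared by exact permutation tests. The edgeR test was tried on simulated counts, where it recovered 99 of 100 genes changed 4 times and 100 of 100 changed 8 times, with 8 false calls. The simulation gave all genes a common dispersion and had no batch or library effect, so it does not show the power in the real counts. The block is the batch of the labels. Named genes are list members, the 20 genes highest against named classes, the 10 most abundant and the 10 of smallest p where fewer than 10 were called. The rule for high cells and the genes describing them came after the values were seen. Members and lists were chosen with earlier results of these data known. Of the 10 most abundant genes, 1 is not reported here.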

Additional observations from a re-analysis of the deposited data

How the results depend on the processing

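Each result was recomputed under the alternatives chosen for it, not under all of them; of these, the barcode pairs, neuron-set carriers, batches 1 and 2 alone and the mice left out of the gene ranking were chosen after seeing the data. For genes called between food-deprived and normal mice the count of 0 became 2 with DESeq2, 1 (Ptgds) with no filter, 1 (Ptgds) with batches 1 and 2 only, 153 with batch as replicate block and 81 in low-Gapdh libraries with that block. The cause was not tested. It was 0 without any single mouse, with 10 or 50 cells per mouse, with neuron-set carriers only and with 1 cell of each barcode pair left out. The difference in zothers share (2.63 points) was -1.89 in mice with at least 200 annotated cells, -0.857 as the mean within-batch difference with the replicate block, and -0.772 to 5.98 when 1 mouse was left out. The depth difference (403.5 UMIs) stayed positive, and was 429 with the block. The neuron set difference (-1.86 points) was 1.80 at the 95th percentile and -7.51 to 2.24 without 1 mouse. Without 1 mouse the mural difference ran from -4.77 to 0.639, the fibroblast difference from -2.99 to 2.16 and the pituitary difference from -0.923 to 0.662 points. The count of sets called was 0 in each case. At the 95th percentile zothers with no set moved from 8.09 to 0.504% and those with 2 or more sets from 7.78 to 13.7%, since a lower threshold admits more carriers. The count of genes more than 2 times above each named class was 5 in all mice and 4 to 10 without 1 mouse, with 10 without food-deprived replicate 1 or 2, 9 without normal replicate 5 and 8 without normal replicate 4. The neuronal nearest-class share stayed at 85.2 to 91.7%. Depth limits low genes: marker genes under the test filter were not tested.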
